A study of Homo sapiens with 8 samples.

Results

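The genes described here are 10 genes of the Notch pathway, chosen by name: the 4 receptor genes NOTCH1, NOTCH2, NOTCH3 and NOTCH4, the ligand genes DLL1, DLL4 and JAG1, and the target genes HES1, HEY1 and HEY2. All 10 had a row among the 61209 gene names of the count table, and all 10 passed the filter on low counts, as did 22554 genes in all. Their RNA was sequenced in H1, an established human embryonic stem cell line whose genotype label is Msx1-P2A-tdTomato, a fluorescent reporter of the homeobox gene MSX1. All groups share this line and, per the labels' protocols, a differentiation towards lateral plate mesoderm, the tissue that gives rise to limb mesenchyme. On day 0 this used 50 ng/mL Activin A, 6 µM CHIR99021 (a GSK3 inhibitor that activates WNT signalling), 40 ng/mL BMP4 and 10 ng/mL FGF2, and from day 1, over 3 days, 60 ng/mL BMP4 and 1 µM CHIR99021. On day 4 dissociated cells were pelleted, 25000 to a well, and given both FGF8 and FGF10, 500 ng/mL of either (FGF8+10), or Mock treatment, for which no medium is described. They were moved on day 5, kept for 3 days more and sorted on day 8. Msx1-positive cells were then sorted as Pdgfra-positive or Pdgfra-low. The 4 groups were FGF8+10 Pdgfra-positive, Mock Pdgfra-positive, FGF8+10 Pdgfra-low and Mock Pdgfra-low cells, with 2 libraries each. Replicates are labelled biological, but separate differentiations are not stated. The p-values thus measure the spread between these libraries, shared in part over genes, and that spread may be technical.

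Notch receptors are single-pass membrane proteins that bind Delta-like (DLL) and Jagged (JAG) ligands on a neighbouring cell. Ligand pulling exposes the receptor to ADAM10 and then to gamma-secretase, which frees the intracellular domain. That domain enters the nucleus and, with RBPJ and a Mastermind (MAML) coactivator, switches on target genes. These include several HES and HEY genes, which encode bHLH repressors. In the embryo the pathway acts in somite segmentation, in arteries, where DLL4 is a ligand of the endothelium, in the mural cells of vessels, where NOTCH3 is prominent, and in limb mesenchyme, where it restrains chondrocyte differentiation in mouse.

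The libraries held 47698561 to 64390444 counts, with each mate of a pair counted on its own. PDGFRA, used for the gate, averaged 714 ± 2.88 CPM (counts scaled to the TMM-adjusted library size) in FGF8+10 Pdgfra-positive, 454 ± 1.87 in Mock Pdgfra-positive, 286 ± 9.28 in FGF8+10 Pdgfra-low and 192 ± 3.64 in Mock Pdgfra-low libraries (SD, n = 2 each), so its order between the gates matched the labels. MSX1, whose reporter was the other gate, averaged 50.3 ± 1.68, 21.7 ± 0.566, 50.7 ± 3.01 and 26.2 ± 0.0235 CPM in the same groups. Both sort genes were thus higher with FGF8+10, and the cells were sorted after the treatment. A response of the same cells and a change in which cells a gate took cannot be told apart in these data, nor can fewer cells of a type and less RNA per cell. Of 11 limb and lateral plate mesenchyme markers, every group had reads for at least 10, with summed levels of 1182 to 1392 CPM. LHX9 was at 0 in FGF8+10 Pdgfra-low cells and had at most 1 count in any library. LHX2 averaged under 1 CPM in both FGF8+10 groups. HAND1 and HAND2 were the largest parts of each sum, each at 345 CPM or more on average. Single markers did not share a direction: with FGF8+10, TBX4 averaged lower and FGF10 higher in both populations.

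The receptor genes differed most in level. Per length, as TPM (counts per exon length, scaled to the same sum in each library), NOTCH2 and NOTCH3 together supplied most of the receptor RNA in every library, NOTCH1 less, and NOTCH4 almost none. In FGF8+10 Pdgfra-positive libraries NOTCH3 led with 49.5 ± 0.152% of the summed receptor TPM and NOTCH2 had 36.6 ± 0.136%, whereas in Mock Pdgfra-positive libraries NOTCH3 had 33.2 ± 0.419% and NOTCH2 led with 54.6 ± 0.0688%. The same change of leader was seen in Pdgfra-low cells, where NOTCH3 had 45.02 ± 0.326% and NOTCH2 33.7 ± 0.340% with FGF8+10, and NOTCH3 had 29.5 ± 0.175% and NOTCH2 48.7 ± 0.334% with Mock. These shares are descriptions of 2 libraries per group, without a test. The change of leader holds only per length, with 16744 exon bases for NOTCH2 and 9408 for NOTCH3. In CPM, NOTCH2 stood above NOTCH3 in every group. With FGF8+10 the averages were 378 and 287 in Pdgfra-positive and 270.5 and 203 in Pdgfra-low libraries. Reads that map to several places were dropped, so the NOTCH2 share is uncertain. The summed receptor level was 335 ± 7.86 TPM in FGF8+10 Pdgfra-positive, 296 ± 0.133 TPM in Mock Pdgfra-positive, 257 ± 5.43 TPM in FGF8+10 Pdgfra-low and 278 ± 1.26 TPM in Mock Pdgfra-low libraries. NOTCH4 supplied between 0.137% and 0.387% of it in single libraries.

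**Figure D1:**
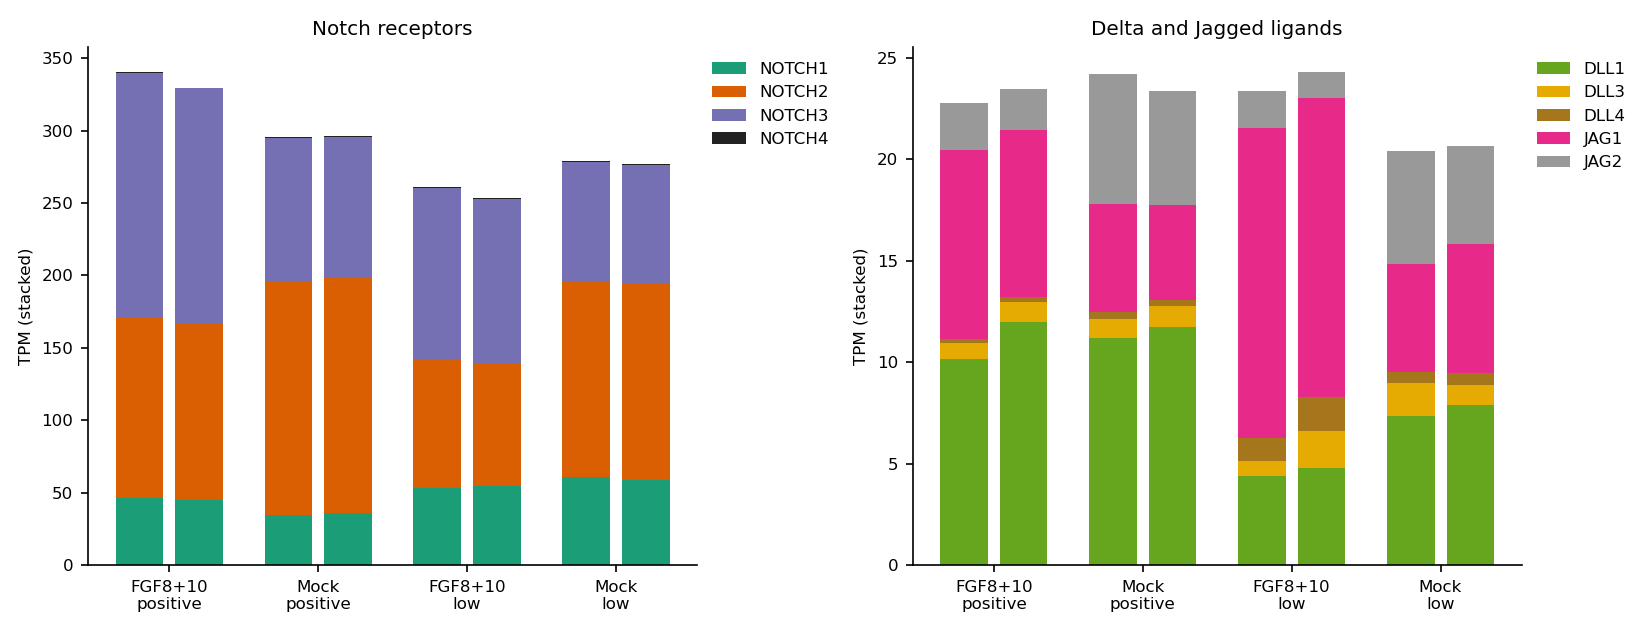
Summed TPM of the 4 Notch receptor genes (left) and of the 5 Delta and Jagged ligand genes (right), 1 stacked bar per library, with FGF8+10 left of Mock in each sorted population. NOTCH3 is the larger of the NOTCH2 and NOTCH3 segments in all FGF8+10 bars and the smaller one in all Mock bars, and JAG1 makes up 60.5% to 65.4% of the ligand bar in FGF8+10 Pdgfra-low libraries.

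The first question was what FGF8+10 did to these genes in each sorted population. Of the 10 genes, 5 were higher and 1 lower with FGF8+10 in Pdgfra-positive cells by edgeR's quasi-likelihood test, at a Benjamini-Hochberg adjusted p under 0.05 over all tested genes. In that comparison 50.9% of all tested genes were called, 25.8% higher and 25.1% lower, so a count of 6 in 10 is near the background. In Pdgfra-low cells 5 were higher and 3 lower, against 55.7% of all tested genes called, 27.9% higher and 27.7% lower. The median log2 fold change of the 10 genes was 0.31 in Pdgfra-positive and 0.36 in Pdgfra-low cells, and over all tested genes it was -0.01 and -0.02. The 2 libraries of FGF8+10 did not overlap the 2 of Mock for any of the 10 genes in either population. The same held for 73.6% of all tested genes in Pdgfra-positive and 76% in Pdgfra-low cells, so it sets no gene apart. Directions are relative to the scaling of the libraries. With library totals as the only scaling, the median of all genes stood 0.16 (Pdgfra-positive) and 0.15 (Pdgfra-low) higher with FGF8+10 on the log2 scale, and the calls over all genes were 8164 higher and 3991 lower in Pdgfra-positive and 8113 and 4672 in Pdgfra-low cells. With the TMM scaling used throughout they were 5811 and 5658, and 6300 and 6256. None of the 10 genes changed direction in these 2 comparisons between the scalings.

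Among the receptors, NOTCH2 fell and NOTCH3 rose with FGF8+10 in both populations. NOTCH2 (GRCh38 chromosome 1, 119911553 to 120100779, minus strand) stood at 382 and 373 CPM in FGF8+10 Pdgfra-positive libraries, against 548 and 549 CPM in Mock Pdgfra-positive libraries. The Pdgfra-low libraries held 276 and 265 CPM with FGF8+10, against 461 and 464 CPM with Mock. Both FGF8+10 groups were therefore below both Mock groups. Its log2 fold change was -0.54 ± 0.023 (SE) in Pdgfra-positive and -0.77 ± 0.024 in Pdgfra-low cells (adjusted p = 2.25e-24 and 2.54e-30), and the FGF8+10 effects differed by 0.23 ± 0.033 (adjusted p = 1.88e-07). NOTCH2 has near-identical partial copies, the NOTCH2NL genes of human chromosome 1, and reads that map to several places were dropped, so its level is uncertain where the copies match. Of the 4 copies counted, NOTCH2NLA, NOTCH2NLB and NOTCH2NLC were also lower with FGF8+10 in both populations and NOTCH2NLR was not called. The highest level of any copy in a library was 10.6 CPM, for NOTCH2NLB.

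NOTCH3 (chromosome 19, 15159038 to 15200995, minus strand) was highest in FGF8+10 Pdgfra-positive cells. It stood at 292 and 282 CPM in FGF8+10 Pdgfra-positive libraries, against 189 and 186 CPM in Mock Pdgfra-positive libraries. In Pdgfra-low cells the values were 207 and 199.6 CPM with FGF8+10 and 157 and 158 CPM with Mock. The rise was 0.61 ± 0.028 on the log2 scale in Pdgfra-positive and 0.37 ± 0.028 in Pdgfra-low cells (adjusted p = 1.35e-23 and 1.05e-15), a difference of 0.24 ± 0.040 (adjusted p = 3.01e-06). The 4 groups of NOTCH3 libraries did not overlap, and FGF8+10 was the higher treatment in both populations. Between the populations, none of the 10 genes overlapped under either treatment. The same held for 67.2% of all tested genes with FGF8+10 and 58.7% with Mock, so it sets no gene apart.

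NOTCH1 (chromosome 9, 136494433 to 136546048, minus strand), the receptor best known from T cell development, changed in opposite directions in the 2 populations. In Pdgfra-positive cells it stood at 107 and 104 CPM with FGF8+10, against 87.9 and 91.8 CPM with Mock, a log2 fold change of 0.23 ± 0.035 (adjusted p = 1.96e-07). In Pdgfra-low cells it stood at 125 and 127 CPM with FGF8+10, against 156 and 149.5 CPM with Mock, a log2 fold change of -0.28 ± 0.033 (adjusted p = 9.22e-10). The difference between the effects was 0.51 ± 0.048 (adjusted p = 7.92e-12). NOTCH4 (chromosome 6, 32194843 to 32224067, minus strand), a receptor known mainly from endothelium, had only 55 to 129 counts per library. It averaged 0.960 ± 0.213 CPM in FGF8+10 Pdgfra-positive, 1.35 ± 0.149 in Mock Pdgfra-positive, 1.56 ± 0.137 in FGF8+10 Pdgfra-low and 1.96 ± 0.243 in Mock Pdgfra-low libraries. Its log2 fold changes with FGF8+10, -0.49 ± 0.29 in Pdgfra-positive and -0.33 ± 0.27 in Pdgfra-low cells, did not pass the test (adjusted p = 0.167 and 0.320). NOTCH4 shares 98 exon bases, 1.01% of its exon length, with GPSM3 on the same strand, and reads over both were dropped.

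**Figure D2:**
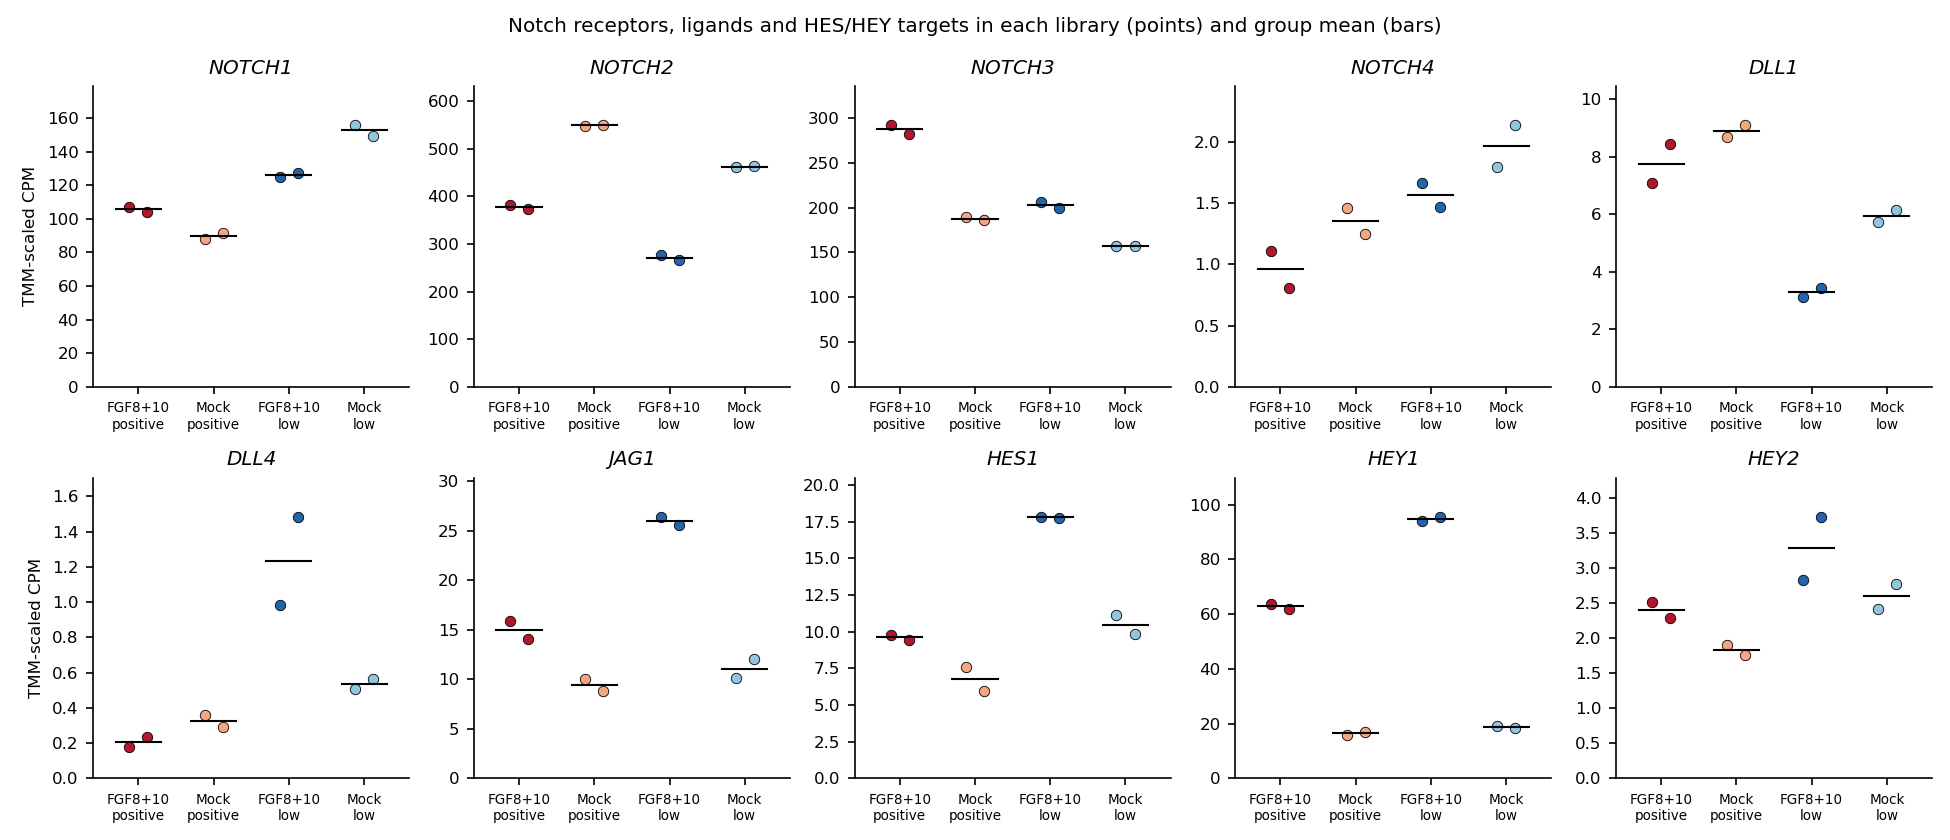
TMM-scaled CPM of the 10 Notch genes, 1 panel per gene with an axis from 0, for each library (points) and group mean (horizontal lines), with FGF8+10 left of Mock in each sorted population. HEY1 stands between 61.9 and 95.6 CPM in FGF8+10 libraries and between 15.9 and 19.3 CPM in Mock libraries, and JAG1, HES1 and DLL4 are highest in both FGF8+10 Pdgfra-low libraries.

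Among the ligands, JAG1 rose with FGF8+10 in both populations, and DLL1 fell in Pdgfra-low cells. JAG1 (chromosome 20, 10637684 to 10673999, minus strand), a Jagged ligand whose loss causes Alagille syndrome, stood at 15.9 and 14.04 CPM in FGF8+10 Pdgfra-positive libraries, against 10.0 and 8.86 CPM in Mock Pdgfra-positive libraries. The Pdgfra-low libraries held 26.4 and 25.6 CPM with FGF8+10, against 10.1 and 12.03 CPM with Mock. The FGF8+10 Pdgfra-low libraries were thus above all others, and the Mock groups lay closest to each other. The log2 fold changes were 0.67 ± 0.099 in Pdgfra-positive and 1.23 ± 0.093 in Pdgfra-low cells (adjusted p = 1.54e-07 and 8.28e-16), and they differed by -0.57 ± 0.14 (adjusted p = 0.00106). JAG1 shares 306 exon bases, 3.29% of its exon length, with an unnamed gene on the opposite strand that had at most 4 counts in a library.

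DLL1 (chromosome 6, 170282206 to 170306565, minus strand), a Delta ligand needed for somite segmentation in mouse, stood at 7.09 and 8.42 CPM in FGF8+10 Pdgfra-positive libraries, against 8.67 and 9.09 CPM in Mock Pdgfra-positive libraries. That difference did not pass the test (log2 fold change -0.20 ± 0.13, adjusted p = 0.229). In Pdgfra-low cells DLL1 stood at 3.13 and 3.43 CPM with FGF8+10, against 5.72 and 6.15 CPM with Mock, a log2 fold change of -0.85 ± 0.15 (adjusted p = 2.19e-06). The effects differed by 0.66 ± 0.20 (adjusted p = 0.00931), a call that was lost without the second FGF8+10 Pdgfra-positive library (0.54, adjusted p = 0.0796). DLL1 shares 370 exon bases, 9.69% of its exon length, with FAM120B on the opposite strand. FAM120B had 2428 to 3494 counts per library, and the counts are unstranded, so DLL1 was counted on the rest of its exons and reads of the partner that fall there cannot be told apart.

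DLL4 (chromosome 15, 40929340 to 40939073, plus strand) was, per length, the least abundant of the 10 genes in all groups but FGF8+10 Pdgfra-low, with 12 to 87 counts per library. It stood at 0.178 and 0.236 CPM in FGF8+10 Pdgfra-positive libraries, against 0.358 and 0.291 CPM in Mock Pdgfra-positive libraries, and this difference did not pass the test (log2 fold change -0.64 ± 0.52, adjusted p = 0.324). In Pdgfra-low cells it stood at 0.981 and 1.48 CPM with FGF8+10, against 0.509 and 0.562 CPM with Mock. The rise of 1.20 ± 0.42 on the log2 scale (adjusted p = 0.0143) was lost without the second FGF8+10 Pdgfra-low library (0.87, adjusted p = 0.203) and without either Mock Pdgfra-low library (1.13 and 1.27, adjusted p = 0.0807 and 0.0515). The difference between the effects, -1.84 ± 0.67 (adjusted p = 0.0368), was lost under DESeq2 (adjusted p = 0.0532) and in each fit that left out 1 library, except that without FGF8+10 Pdgfra-low replicate 1.

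As a share of the summed TPM of the 5 Delta and Jagged genes (DLL1, DLL3, DLL4, JAG1 and JAG2), JAG1 made up 38.0 ± 4.29% in FGF8+10 Pdgfra-positive and 21.0 ± 1.32% in Mock Pdgfra-positive libraries. In Pdgfra-low cells its share was 63.0 ± 3.46% with FGF8+10 and 28.4 ± 3.17% with Mock. DLL1 made up 47.8 ± 4.59% in FGF8+10 Pdgfra-positive, 48.2 ± 2.84% in Mock Pdgfra-positive, 19.3 ± 0.620% in FGF8+10 Pdgfra-low and 37.1 ± 1.51% in Mock Pdgfra-low libraries. The sums of the 5 genes lay between 20.4 and 24.3 TPM in all 8 libraries. Without DLL3 and JAG2, the summed TPM of DLL1, DLL4 and JAG1 was 20.05 ± 0.548 in FGF8+10 Pdgfra-positive and 16.8 ± 0.0954 in Mock Pdgfra-positive libraries, and 21.0 ± 0.272 with FGF8+10 and 14.02 ± 1.13 with Mock in Pdgfra-low libraries.

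Of the target genes, HEY1 had the largest change of the 10 genes and HES1 a smaller one in the same direction. HEY1 (chromosome 8), a bHLH repressor that Notch induces in vessels and mesenchyme, stood at 63.7 and 61.9 CPM in FGF8+10 Pdgfra-positive libraries, against 15.9 and 16.9 CPM in Mock Pdgfra-positive libraries. The Pdgfra-low libraries held 93.9 and 95.6 CPM with FGF8+10, against 19.3 and 18.2 CPM with Mock. Every FGF8+10 library was far above every Mock library. The ratio of the group means was 3.83 in Pdgfra-positive and 5.06 in Pdgfra-low cells, with log2 fold changes of 1.94 ± 0.056 and 2.34 ± 0.053 (adjusted p = 5.15e-31 and 2.52e-35). The effects differed by -0.40 ± 0.078 (adjusted p = 6.73e-05), being smaller in Pdgfra-positive cells.

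HES1 (chromosome 3, 194136148 to 194138732, plus strand), a bHLH repressor, stood at 9.76 and 9.47 CPM in FGF8+10 Pdgfra-positive libraries, against 7.60 and 5.94 CPM in Mock Pdgfra-positive libraries. In Pdgfra-low cells it stood at 17.8 and 17.8 CPM with FGF8+10, against 11.1 and 9.81 CPM with Mock. The log2 fold changes were 0.51 ± 0.12 and 0.77 ± 0.11 (adjusted p = 0.000224 and 2.48e-08), and the difference between them did not pass the test (-0.26 ± 0.16, adjusted p = 0.264). HEY2 (chromosome 6, 125747664 to 125761269, plus strand), a repressor of arteries and of the ventricle of the heart, averaged 2.41 ± 0.156 CPM in FGF8+10 Pdgfra-positive and 1.83 ± 0.0993 in Mock Pdgfra-positive libraries. In Pdgfra-low cells it averaged 3.28 ± 0.640 CPM with FGF8+10 and 2.60 ± 0.258 CPM with Mock. Its log2 fold changes, 0.39 ± 0.22 and 0.34 ± 0.21, did not pass the test (adjusted p = 0.148 and 0.173). Scaled by library totals alone they were 0.57 and 0.50 and passed (adjusted p = 0.0305 and 0.0395).

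**Figure D3:**
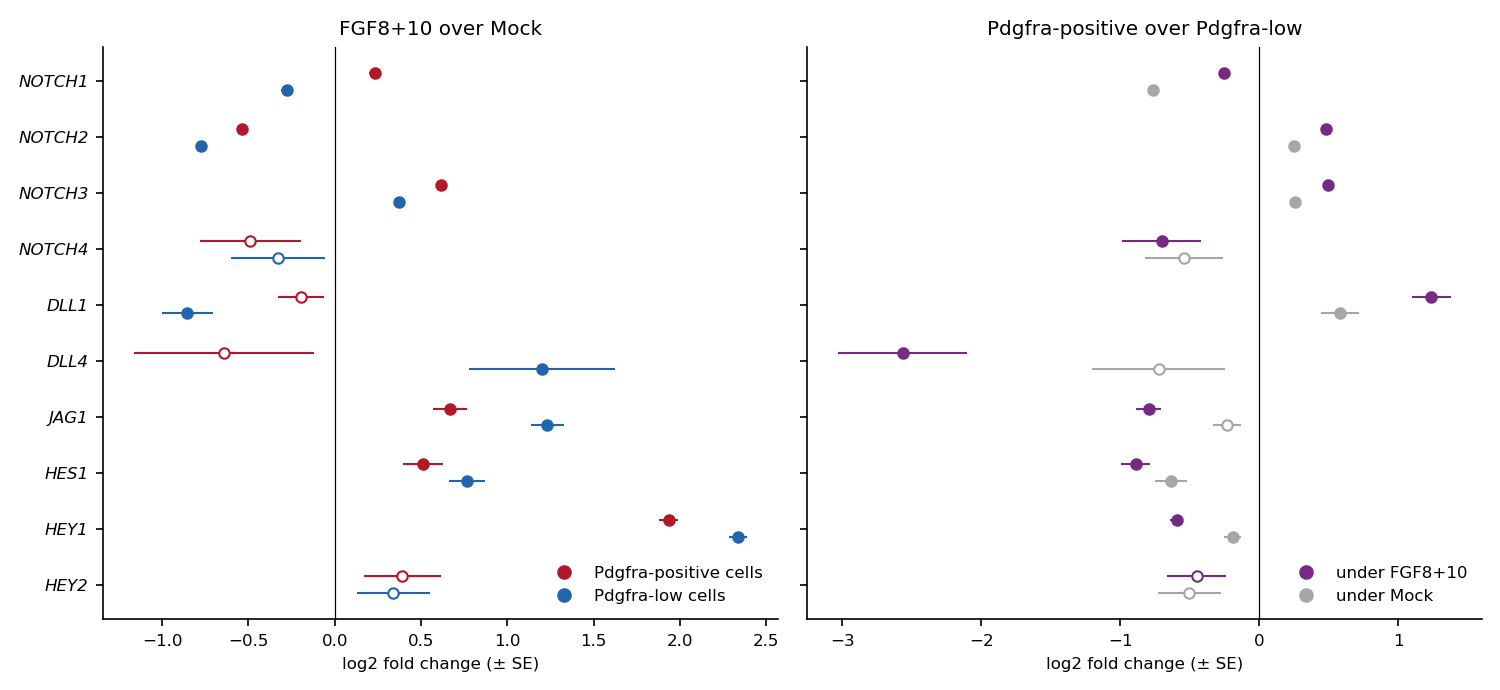
Log2 fold changes with SE of the 10 Notch genes, FGF8+10 over Mock in each population (left) and Pdgfra-positive over Pdgfra-low under each treatment (right). Filled points passed an adjusted p of 0.05 and open points did not. HEY1 has the largest FGF8+10 changes, NOTCH1 lies on opposite sides of 0 in the 2 populations, and DLL4 has the widest errors.

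The upstream sequences of HES1 and HEY2 are shown. Of the 8 Notch genes searched, these 2 had a match to a known binding motif of the Notch nuclear factor RBPJ. HEYL, the third HEY family gene, also held a match and is shown beside them, while HES4 (1 match) and HES5 (2 matches) are not shown. Each line gives the 250 bases before the gene start in RefSeq (GRCh38.p14), 5′ to 3′ on the gene's strand. Capitals mark the motif, searched as GTGGGAA or its reverse complement TTCCCAC. The HES1 window is chr3:194135898-194136147 (plus strand), the HEY2 window chr6:125749382-125749631 (plus strand) and the HEYL window chr1:39639644-39639893 (minus strand).
HES1: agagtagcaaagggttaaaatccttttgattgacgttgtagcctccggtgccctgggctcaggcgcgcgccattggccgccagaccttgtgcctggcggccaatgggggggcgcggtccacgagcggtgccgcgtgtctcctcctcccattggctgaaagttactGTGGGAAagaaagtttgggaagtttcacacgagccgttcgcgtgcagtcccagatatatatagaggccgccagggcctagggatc
HEY2: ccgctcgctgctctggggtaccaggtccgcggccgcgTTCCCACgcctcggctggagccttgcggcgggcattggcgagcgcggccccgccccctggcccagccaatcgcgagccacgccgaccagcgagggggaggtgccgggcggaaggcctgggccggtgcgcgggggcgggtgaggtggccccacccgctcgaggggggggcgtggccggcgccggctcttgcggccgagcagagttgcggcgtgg
HEYL: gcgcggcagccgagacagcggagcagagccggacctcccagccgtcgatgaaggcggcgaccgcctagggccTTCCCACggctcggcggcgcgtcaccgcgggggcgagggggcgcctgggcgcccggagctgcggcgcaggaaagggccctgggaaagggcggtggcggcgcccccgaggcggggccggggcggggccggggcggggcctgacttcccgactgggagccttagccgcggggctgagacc
The motif began 85 bases before the start in HES1, 213 in HEY2 and 178 in HEYL. Windows were searched for 8 of the 10 Notch genes. DLL1 and HEY1 were not searched, so nothing is known here of the motif in them. Of 35116 gene windows of this length, 1906 (5.43%) held the motif. For HEY2 the RefSeq start lies downstream of the gene start in the count table, so its window falls within the gene's span there. A match is a string in a window, not a measured binding site.

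The second question was how the sorted populations differed. With FGF8+10, 3 of the 10 genes were higher and 6 lower in Pdgfra-positive than in Pdgfra-low cells, where 41.4% of all tested genes were called, 19.6% higher and 21.7% lower. The median log2 difference of the 10 genes was -0.52, against 0.01 over all tested genes. NOTCH2 (0.48 ± 0.024), NOTCH3 (0.50 ± 0.028) and DLL1 (1.24 ± 0.14) were the higher ones. DLL4 (-2.57 ± 0.47, adjusted p = 9.81e-06), HES1 (-0.89 ± 0.11), JAG1 (-0.80 ± 0.090), HEY1 (-0.59 ± 0.048) and NOTCH1 (-0.26 ± 0.034) were lower in Pdgfra-positive cells, so the 2 most abundant receptors and DLL1 were on one side and DLL4, JAG1 and the targets HES1 and HEY1 on the other. NOTCH4 was also called lower (-0.70 ± 0.28, adjusted p = 0.044), but the call was lost under DESeq2 (adjusted p = 0.0728), without the filter on low counts (adjusted p = 0.0882) and without any 1 of 5 libraries: FGF8+10 Pdgfra-positive replicate 2 (-0.49, adjusted p = 0.316), either FGF8+10 Pdgfra-low library (adjusted p = 0.187 and 0.0719) or either Mock Pdgfra-low library (adjusted p = 0.0515 and 0.0543). HEY2 missed the threshold (-0.45 ± 0.21, adjusted p = 0.0849) and passed it without FGF8+10 Pdgfra-low replicate 1 (-0.63, adjusted p = 0.0404).

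With Mock, 3 of the 10 genes were higher and 3 lower in Pdgfra-positive than in Pdgfra-low cells, where 25.8% of all tested genes were called, 12.4% higher and 13.4% lower. NOTCH2 (0.25 ± 0.023), NOTCH3 (0.25 ± 0.029) and DLL1 (0.58 ± 0.14) were again higher, and NOTCH1 (-0.76 ± 0.035) and HES1 (-0.63 ± 0.12) lower. HEY1 was lower by a small margin (-0.19 ± 0.062, adjusted p = 0.0177), a call that was lost without Mock Pdgfra-positive replicate 1 (adjusted p = 0.186) and without Mock Pdgfra-low replicate 1 (adjusted p = 0.148). JAG1 (-0.23 ± 0.10, adjusted p = 0.0985), DLL4 (-0.72 ± 0.48, adjusted p = 0.306), NOTCH4 (-0.54 ± 0.28, adjusted p = 0.169) and HEY2 (-0.50 ± 0.23, adjusted p = 0.102) did not pass, though JAG1 did without Mock Pdgfra-low replicate 1 (-0.35, adjusted p = 0.0252). The 2 comparisons of populations share no library.

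The FGF8+10 effects themselves differed between the populations for 7 of the 10 genes, where 26.0% of all tested genes were called. The effect was more positive in Pdgfra-positive cells for NOTCH1, NOTCH2, NOTCH3 and DLL1, and less positive for DLL4, JAG1 and HEY1. HES1, HEY2 (0.05 ± 0.31, adjusted p = 0.941) and NOTCH4 (-0.16 ± 0.40, adjusted p = 0.838) did not pass. The median over the 10 genes was -0.05 and over all genes -0.01.

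Ranked from the highest group mean to the lowest, the 10 genes gave 30 pairs of neighbouring groups, of which 19 differed at an adjusted p under 0.05. For the neighbours that differ in both treatment and population, 53.0% of all tested genes were called for FGF8+10 Pdgfra-positive over Mock Pdgfra-low and 57.3% for FGF8+10 Pdgfra-low over Mock Pdgfra-positive. For the other comparisons the shares were 50.9% and 55.7% between treatments and 41.4% and 25.8% between populations. The order came from the same means, and the share of separated neighbours over all tested genes was not computed. The count of 19 is therefore a description without a background. NOTCH1 (Mock Pdgfra-low, FGF8+10 Pdgfra-low, FGF8+10 Pdgfra-positive, Mock Pdgfra-positive), NOTCH2 (Mock Pdgfra-positive, Mock Pdgfra-low, FGF8+10 Pdgfra-positive, FGF8+10 Pdgfra-low), NOTCH3 (FGF8+10 Pdgfra-positive, FGF8+10 Pdgfra-low, Mock Pdgfra-positive, Mock Pdgfra-low) and HEY1 had all neighbours apart. HEY1 and JAG1 had the order FGF8+10 Pdgfra-low, FGF8+10 Pdgfra-positive, Mock Pdgfra-low and Mock Pdgfra-positive, and for JAG1 the last pair did not differ beyond its spread. HES1 and HEY2 had the order FGF8+10 Pdgfra-low, Mock Pdgfra-low, FGF8+10 Pdgfra-positive and Mock Pdgfra-positive. The middle pair was not separated for HES1 (adjusted p = 0.362) and no pair was for HEY2. DLL1 ran from Mock Pdgfra-positive over FGF8+10 Pdgfra-positive and Mock Pdgfra-low to FGF8+10 Pdgfra-low, with the first pair not separated. DLL4 stood apart from its neighbours in FGF8+10 Pdgfra-low cells alone, and NOTCH4, highest in Mock Pdgfra-low and lowest in FGF8+10 Pdgfra-positive cells, had no neighbours apart.

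Notch receptors, ligands and targets, NOTCH4 among them, are also used by endothelium, and endothelial markers were called higher with FGF8+10 in Pdgfra-low cells. Of the Notch genes, NOTCH3, DLL4, JAG1, HES1 and HEY1 were also called higher there, and NOTCH1, NOTCH2 and DLL1 lower. HEY2 and NOTCH4 were not called. NOTCH1 averaged 126 CPM with FGF8+10 and 153 with Mock in these cells, and NOTCH4 1.56 and 1.96 CPM. The DLL4 call was lost without certain single libraries. All 15 of 15 markers were higher there, against 27.9% of all tested genes. In Pdgfra-positive cells 9 were higher and 2 lower with FGF8+10, against 25.8% and 25.1% of all tested genes. With FGF8+10, 0 were higher and 14 lower in Pdgfra-positive than in Pdgfra-low cells, against 19.6% and 21.7%. With Mock, 5 were higher and 2 lower, against 12.4% and 13.4%, while HES1 and HEY1 were lower. PECAM1, an adhesion molecule of the endothelium, averaged 2.60 ± 0.720 CPM in FGF8+10 Pdgfra-positive, 0.939 ± 0.0661 in Mock Pdgfra-positive, 18.5 ± 1.33 in FGF8+10 Pdgfra-low and 0.676 ± 0.0433 in Mock Pdgfra-low libraries. CDH5, the endothelial cadherin, averaged 1.39 ± 0.474, 0.956 ± 0.295, 19.8 ± 0.581 and 1.40 ± 0.366 CPM in the same groups. The summed level of the 15 markers was 2326 to 2336 CPM in FGF8+10 Pdgfra-positive, 1498 to 1508 in Mock Pdgfra-positive, 2911 to 2914 in FGF8+10 Pdgfra-low and 1563 to 1572 in Mock Pdgfra-low libraries. Most of each sum was KDR, at 1610, 1154, 1969 and 1205 CPM on average in the same groups. No marker was at 0 reads in a whole group, though CLDN5 and VWF averaged under 1 CPM in all groups. The part of these markers in the Notch results was not tested.

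**Figure D4:**
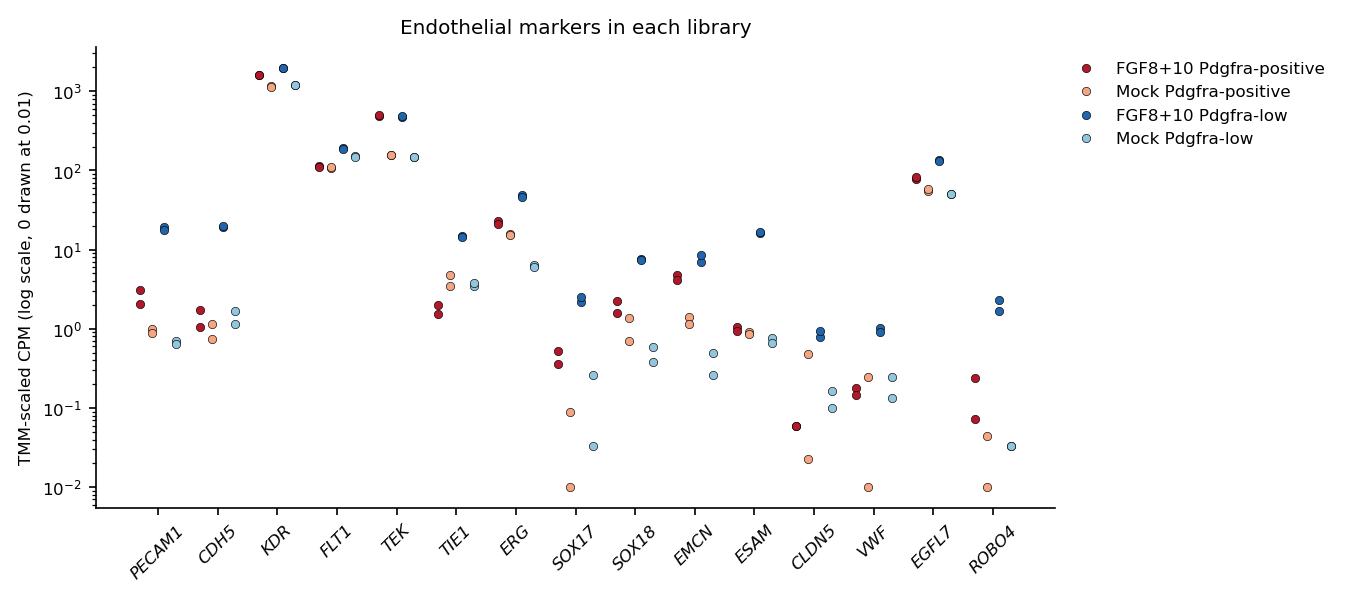
TMM-scaled CPM (log axis, 0 drawn at 0.01) of the 15 endothelial markers in each library, coloured by group. PECAM1 and CDH5 stand near 20 CPM in FGF8+10 Pdgfra-low libraries and at or below 3.11 CPM in all others, while KDR, FLT1, TEK and EGFL7 are abundant in every group.

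Smooth muscle and pericyte markers, of cells in which NOTCH3 is known, shared no single order of the groups. Their 11 genes summed to 445 to 455 CPM in FGF8+10 Pdgfra-positive, 434 to 436 in Mock Pdgfra-positive, 691 to 700 in FGF8+10 Pdgfra-low and 525 to 528 in Mock Pdgfra-low libraries. RGS5 was the largest part of each sum, at 279, 170, 483 and 267 CPM on average in the same groups. ACTA2, TAGLN, RGS5, ABCC9 and MCAM were highest in FGF8+10 Pdgfra-low cells. MYH11, CNN1, SMTN, DES, KCNJ8 and CSPG4 were highest in a Mock group. Of the 11, 2 were called higher and 5 lower with FGF8+10 in Pdgfra-positive cells and 4 higher and 5 lower in Pdgfra-low cells, where 50.9% and 55.7% of all tested genes were called. MYH11 averaged under 1 CPM in 3 groups and ABCC9 in all 4, with no reads in Mock Pdgfra-positive cells. NOTCH3 was highest in FGF8+10 Pdgfra-positive cells. Cardiac muscle markers, 10 genes, summed to 23.4 to 24.6 CPM in FGF8+10 Pdgfra-positive and 151 to 156 in Mock Pdgfra-positive libraries, and to 13.2 to 13.3 with FGF8+10 and 147 to 154 with Mock in Pdgfra-low libraries. Presomitic and somite markers, 10 genes, summed to at most 7.82 CPM in a library, and MYF5 was at 0 reads throughout. Neural markers, 9 genes, summed to 134 CPM in both Mock Pdgfra-low libraries and to at most 13.2 CPM in the others, and STMN2 supplied up to 129 CPM of that sum. The part of these cell types was not tested either.

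The rest of the pathway was read from 58 further genes, of which 55 passed the filter. With FGF8+10, 21 were higher and 21 lower in Pdgfra-positive cells, where 25.8% of all tested genes were higher and 25.1% lower. In Pdgfra-low cells 18 were higher and 22 lower, against 27.9% and 27.7% of all tested genes. Among other ligands, JAG2 stood at 2.68 and 2.41 CPM in FGF8+10 Pdgfra-positive libraries, against 8.31 and 7.28 CPM in Mock Pdgfra-positive libraries, and fell in both populations (log2 fold changes -1.61 ± 0.17 and -1.86 ± 0.18). JAG2 therefore went the other way from JAG1. DLK2, a non-canonical ligand related to DLK1, rose (1.05 ± 0.10 and 0.44 ± 0.11). DLK1, an imprinted relative of the Delta ligands that lacks their receptor-binding domain, averaged 149 ± 1.62 CPM with FGF8+10 and 101 ± 1.81 with Mock in Pdgfra-positive cells, and 64.1 ± 2.86 and 139 ± 1.82 in Pdgfra-low cells. Its effects were thus opposite (0.56 ± 0.035 and -1.12 ± 0.036) and differed by 1.68 ± 0.050 (adjusted p = 2.8e-29), while NOTCH1 was the only one of the 10 genes with calls of opposite sign.

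Among NRARP and the other genes of the HES and HEY families, HEYL fell while HEY1 rose. HEYL had 10 and 0 counts in FGF8+10 Pdgfra-positive libraries, against 42 and 26 in Mock Pdgfra-positive libraries, and 4 and 12 counts with FGF8+10 against 27 and 53 with Mock in Pdgfra-low libraries. Its log2 fold changes were -3.28 ± 0.73 and -2.20 ± 0.68 (adjusted p = 0.000181 and 0.00542), at a depth where the FGF8+10 libraries of a group differed widely. HES6 is a HES family gene whose response to Notch was not tested here. It averaged 3.25 ± 0.0346 CPM with FGF8+10 and 0.866 ± 0.109 with Mock in Pdgfra-low cells and rose there (1.91 ± 0.29, adjusted p = 2.08e-07). NRARP, a Notch target that feeds back on the receptor's intracellular domain, averaged 2.37 ± 0.148 and 0.799 ± 0.148 CPM in the same groups and also rose (1.57 ± 0.28, adjusted p = 5.59e-06). In Pdgfra-positive cells neither passed (HES6 0.54 ± 0.31, adjusted p = 0.147, and NRARP 0.44 ± 0.27, adjusted p = 0.183), and the effects differed by -1.37 ± 0.43 for HES6 and -1.12 ± 0.39 for NRARP (adjusted p = 0.0126 and 0.0295). HES4 fell slightly in both populations (-0.52 ± 0.17 and -0.49 ± 0.17). HES5, a Notch target of neural progenitors, had at most 4 counts in a library, HES2 at most 8, and the fringe glycosyltransferase gene MFNG at most 6. HES7, a segmentation clock gene, had 11 and 12 counts in FGF8+10 Pdgfra-positive libraries, against 1 and 0 in Mock Pdgfra-positive libraries. Its test passed (adjusted p = 0.0392), with a ratio of 15.8 from the counts. An exact binomial 95% interval of 1.1 to 324 takes 2 mate counts as 1 pair and covers counting error only. The single Mock count was also taken as 1 pair, so the interval belongs to a smaller ratio than 15.8.

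Of the machinery downstream of the receptor, the coactivator gene MAML2 averaged 88.2 ± 1.70 CPM with FGF8+10 and 35.2 ± 0.841 with Mock in Pdgfra-positive cells, and 90.9 ± 0.352 and 31.4 ± 1.07 in Pdgfra-low cells. It rose in both (1.32 ± 0.046 and 1.53 ± 0.046). RBPJ, the DNA-binding partner, was slightly lower with FGF8+10 in both (-0.23 ± 0.032 and -0.16 ± 0.032). PSEN2, one of the gamma-secretase presenilins, fell from low levels (-1.59 ± 0.40 and -0.97 ± 0.39), at 0.384 ± 0.103 CPM with FGF8+10 and 1.16 ± 0.242 with Mock in Pdgfra-positive cells. Of 9 proteolysis genes 4 were higher and 3 lower in Pdgfra-positive cells, where 25.8% of all tested genes were higher and 25.1% lower. In Pdgfra-low cells 3 of the 9 were higher and 4 lower, against 27.9% and 27.7% of all tested genes. Among ligand and receptor turnover genes, NEURL1, whose product ubiquitinates ligands, averaged 2.86 ± 0.137 CPM with FGF8+10 and 12.6 ± 1.40 with Mock in Pdgfra-positive cells and fell in both populations (-2.14 ± 0.15 and -2.31 ± 0.16). NUMBL, a relative of the Notch inhibitor NUMB, fell by less (-0.80 ± 0.056 and -0.80 ± 0.057). DTX1, a Deltex ubiquitin ligase gene, had 2 and 0 counts with FGF8+10 and 16 and 10 with Mock in Pdgfra-low libraries, a ratio of 0.0836 with an exact binomial 95% interval over read pairs of 0.00197 to 0.557 (adjusted p = 0.0159).

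**Figure D5:**
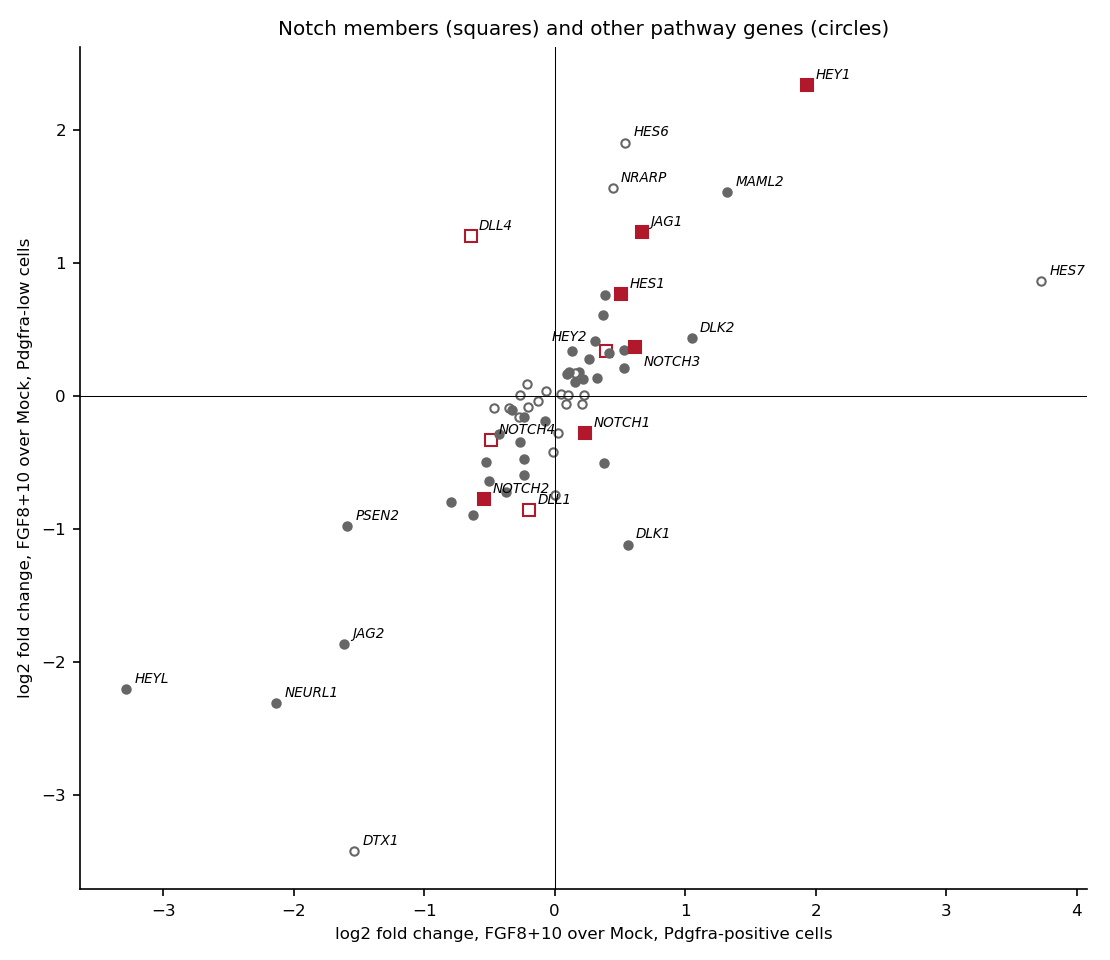
Log2 fold change with FGF8+10 over Mock in Pdgfra-positive (x) and Pdgfra-low cells (y) for the 10 Notch genes (red squares) and 55 other pathway genes (grey circles). Filled symbols passed the test in both populations and open symbols in 1 or neither. HEY1, JAG1, HES1 and MAML2 lie at the upper right, JAG2, NEURL1 and HEYL at the lower left, and DLK1 and NOTCH1 at the lower right.

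Between the populations, 18 of the 55 were higher and 11 lower in Pdgfra-positive than in Pdgfra-low cells with FGF8+10, against 19.6% and 21.7% of all tested genes, and 14 were higher and 7 lower with Mock, against 12.4% and 13.4%. With FGF8+10, DLK1 (1.22 ± 0.035), NEURL1B (0.97 ± 0.044), DTX3L (0.78 ± 0.12), DTX3 (0.73 ± 0.070), MAML3 (0.70 ± 0.045) and DLK2 (0.68 ± 0.10) were higher, and HES6 (-1.30 ± 0.28) and FBXW7 (-0.59 ± 0.056), a ubiquitin ligase gene of receptor turnover, lower. With Mock, NRARP (0.77 ± 0.30, adjusted p = 0.0498), NEURL1B (0.65 ± 0.046), DTX3L (0.57 ± 0.12) and MAML3 (0.52 ± 0.048) were higher, and DTX4 (-0.61 ± 0.089), DLK1 (-0.46 ± 0.035), TLE4 (-0.31 ± 0.040) and ADAM10 (-0.31 ± 0.027) lower. The FGF8+10 effects differed between the populations for 24 of the 55, more positive in Pdgfra-positive cells for 14 and less for 10, where 26.0% of all tested genes were called. Besides DLK1, HES6 and NRARP, the largest of these differences were in DTX3 (0.88 ± 0.10), DTX4 (0.75 ± 0.13), DLK2 (0.61 ± 0.15), RFNG (0.41 ± 0.079) and NEDD4 (-0.38 ± 0.062).

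Over the 8 libraries, the genes whose log2 CPM followed each Notch gene most closely were found among 15133 genes of at least 1 CPM on average, by Pearson's r. HEY1 was followed by PTMA, TPM1 and TMSB4X (r = 0.9995, 0.9993 and 0.9992), and 1340 genes had an r over 0.95 with it. NOTCH2 was followed by FOXP4, ZNF512B and STRA6 (0.9995, 0.9983 and 0.9981), NOTCH3 by STOX2, CLSTN1 and APCDD1 (0.9980, 0.9970 and 0.9968) and NOTCH1 by ERVH48-1, PARM1 and NOG (0.9954, 0.9920 and 0.9887). JAG1 was followed by CWC22, SUN2 and CDKN3 (0.9955, 0.9942 and 0.9940), DLL1 by GRINA, WDFY3 and ACP2 (0.9976, 0.9925 and 0.9925), and DLL4 by RNASEH1, CREM and HSPE1 (0.9890, 0.9888 and 0.9879). HES1 was followed by BLOC1S2, FCF1 and CPPED1 (0.9939, 0.9938 and 0.9933), HEY2 by RNF2, IFT88 and PUM2 (0.9840, 0.9774 and 0.9766), and NOTCH4 by CHFR, CCDC74A and CHMP1B2P (0.9616, 0.9599 and 0.9547). These values describe 8 libraries that fall into 4 groups and share the treatment and the gate, so many genes follow any group pattern.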

How the data were processed

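Per the labels' protocols, TRI Reagent extracts went through the NEBNext Ultra RNA kit. The authors deposited counts of reads for each gene name in 1 table. The submitters' processing notes name FastQC 0.11.8, HISAT2 2.1.0 and the build GRCh38. Per the file headers, featureCounts 2.0.3 counted reads in GENCODE 42 exons by gene name, both mates of a pair and without strand, and dropped reads that overlap several genes or map to several places. The table had 0 summary lines and 0 unused sample columns.

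Counts were fitted with edgeR 4.0.16 (R 4.3.3, limma 3.58.1, TMM, filterByExpr, robust quasi-likelihood, 1 mean per group over all 8 libraries, 4 residual degrees of freedom). The fit draws each gene's spread towards that of the other genes. A p-value therefore does not rest on the 4 degrees of freedom of its own gene alone. Of 39416 genes with any count, 22554 were tested, holding at least 99.96% of each library's counts. Contrasts were two-sided with Benjamini-Hochberg adjustment over all tested genes at 0.05, and an SE is the log2 fold change over the square root of its F. CPM use TMM factors of 0.936 to 1.065, and TPM use the exon lengths of the table. The biological coefficient of variation was 4.06% in common and 8.58% for the median gene. Replicates correlated at r = 0.986 to 0.990 over genes, and their counts differed beyond sampling noise, at 3.38 to 3.66 chi-square units per gene, a value that counting both mates raises. On simulated counts for FGF8+10 over Mock in Pdgfra-positive cells with 22554 genes, 97.9% of genes changed by 1 and 100% of those changed by 2 on the log2 scale were recovered. The changed genes were drawn from those of at least 1 CPM on average, and all genes were given the same dispersion. The recovery does not cover genes at lower levels or with a wider spread, such as DLL4, whose coefficient of variation was 24.2%. DESeq2 1.42.0, other scalings, no filter, counts halved to pairs, the compared groups alone, a replicate block and leaving out each library were tried as alternatives. Intervals cover counting error only: the reads carry no molecular identifiers and are not independent molecules.

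The 10 genes, the pathway and marker lists and the tests were chosen with earlier results of these data known. Beyond the 10, the text names by rule up to 8 called pathway genes with the largest changes per comparison, those at or near 0 reads, copies and overlapping genes, and the 3 most alike genes. HES4, RBPJ, PECAM1, CDH5 and 4 abundant endothelial markers were named after their values were seen.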

Additional observations from a re-analysis of the deposited data

Results flagged for a closer look

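The FGF8+10 effect in Pdgfra-positive cells differed from that in Pdgfra-low cells, by the test of the difference itself, for 7 of the 10 Notch genes, where 26.0% of all tested genes were called. The differences, effect in Pdgfra-positive minus effect in Pdgfra-low cells on the log2 scale, were 0.51 for NOTCH1, 0.23 for NOTCH2, 0.24 for NOTCH3, 0.66 for DLL1, -1.84 for DLL4, -0.57 for JAG1 and -0.40 for HEY1. For NOTCH1 the effects themselves had opposite signs, 0.23 and -0.28, and both passed the test. NOTCH2 fell and NOTCH3, JAG1 and HEY1 rose in both populations, by different amounts. For DLL1 and DLL4 the effect passed the test in Pdgfra-low cells and not in Pdgfra-positive cells. The DLL4 difference rests on 12 to 87 counts per library.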

How the results depend on the processing

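The number of the 10 Notch genes called stayed within 1.5 times its value under the 15 alternatives, of which the fit on the compared groups alone gives no difference between effects, at 6 to 7 and 7 to 9 for FGF8+10 over Mock (Pdgfra-positive, then Pdgfra-low), 8 to 10 and 5 to 6 for Pdgfra-positive over Pdgfra-low under FGF8+10 and Mock, and 5 to 7 for the difference between effects. Of 740 recomputed log2 fold changes, 708 kept direction and side of the threshold, 23 lost the call, 5 gained it and 4 changed sign. NOTCH1, NOTCH2, NOTCH3 and HES1 had 0 such changes. The signs that changed belong to differences between effects that never passed the test. For HEY2 the difference was -0.0028 without FGF8+10 Pdgfra-positive replicate 1, -0.12 without FGF8+10 Pdgfra-low replicate 1 and -0.048 without Mock Pdgfra-low replicate 2, in a range of -0.12 to 0.28 over the libraries left out. For NOTCH4 it was 0.063 without FGF8+10 Pdgfra-positive replicate 2, in a range of -0.39 to 0.063. The cause was not tested beyond the lower number of samples. Fitted on the compared groups alone, HEY1 in Pdgfra-positive over Pdgfra-low cells under Mock lost its call (adjusted p = 0.0738), and with counts halved to pairs HEY2 under FGF8+10 gained one (adjusted p = 0.0495). The DLL4 difference between effects lost its call in all but 1 of the fits without a library (-2.05 to -1.50, adjusted p = 0.0513 to 0.189) and without the filter (adjusted p = 0.07). Libraries of the same replicate number showed no shared deviation between groups (correlations of deviations -0.0122 to 0.0188). Whether they share a culture is not stated, and these correlations cannot show it. The replicate block left the counts at 6, 8, 9, 6 and 7. The number of separated neighbouring groups was 17 to 21 of 30 under settings added after the data were seen. Depth limits DLL4, NOTCH4, HEYL and HES7, which had at most 129 counts in any library.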
